A study of Mus musculus with 7 samples.

Results

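Distal regions of open chromatin that were called in 1 library and in none of the other 6 were described in freshly isolated muscle stem cells (MuSCs). The 7 lists of broad ATAC-seq peaks, 1 per library, were merged on chromosomes 1 to 19 wherever peaks shared at least 1 bp. A merged region was kept if all of its peaks came from the same library and if it lay outside the window of 1 kb on either side of every protein-coding transcription start site (TSS). This left 13393 single-library distal regions of 93201 merged regions, or of 79144 distal ones. Of all merged regions 14.7% were called in exactly 1 library, whereas the share was 16.9% among distal regions and 2.28% among the 14057 regions within 1 kb of a TSS. The 321 single-library regions inside that window were left out. The regions were chosen by the presence and absence of peak calls, hence their scores, lengths and shares of the total are given as a description.

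The study asked whether loss of Nedd4L, an E3 ubiquitin ligase, changes chromatin accessibility in MuSCs. There were 4 Nedd4L-cKO libraries, from Nedd4L fl/fl Pax7 cre/+ mice, and 3 libraries labelled WT, whose further alleles the labels do not give. The mice were males of 5 to 6 weeks, the background of the line was C57BL/6, and 5000 hindlimb cells were sorted for each library as positive for ITGA7 and Hoechst and negative for CD31, CD45, CD11b and SCA1. In the Nedd4L-cKO, Cre is expressed from the Pax7 locus, hence recombination is restricted to cells that express or once expressed Pax7, and deletion removes a loxP-flanked catalytic exon rather than the whole gene, which leaves a transcript.

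ATAC-seq uses the Tn5 transposase, which inserts adapters where DNA is not wrapped in nucleosomes. Promoters of active genes are open in most cell types, whereas distal elements such as enhancers are the part of the open genome that differs most between cell types and states. MuSCs rest in a quiescent state under the basal lamina of the muscle fiber, and transcription factors such as PAX7 and the E-box binding myogenic factors act in large part at distal elements. An element that is weakly open, or open in few of the sorted cells, yields few cuts and may pass the peak threshold in some libraries and not in others.

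The cell label was first checked at promoters. All 7 of 7 MuSC markers, among them Pax7, Myf5 and Myod1, had a peak within 1 kb of a TSS in all 7 libraries. The 4 immune markers, including Ptprc, which encodes CD45, had a promoter peak in no library, and neither did Pecam1, Cdh5, Pdgfra, Ly6a and Sox10. Other markers of neighbouring cell types were open: Kdr, Tek, Col1a1, Myh1, Myh4, Acta1, Acta2, Myh11 and Scx had a promoter peak in all 7 libraries, Dcn and Ckm in 5 and Rgs5 in 1. Thus, only part of these lists is closed in the sorted cells, and their contribution to the single-library regions was not tested. Whether the open promoters belong to MuSCs or to other cells in the sort was not tested either. The libraries kept 14.4 to 20.1 M tags (mega) after the removal of repeats at the same position and strand, from 28.4 to 42.4 M read. WT replicate 3 was the only library whose file header named lane 2.

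Sequence can be shown where RefSeq lists a transcript start inside a single-library region. A start of a long noncoding RNA (lncRNA), a transcript without a long open reading frame, lay in 65 of the 13393 regions (0.485%), compared with 262 of 26332 distal regions called in 2 to 6 libraries (0.995%) and 1084 of 39419 called in all 7 (2.75%). The share therefore rose with the number of libraries. The median length of the regions rose as well, from 334 bp in 1 library to 1211 bp in all 7. Longer regions can hold more starts, and the shares were not adjusted for length. The 4 regions with a start and the highest score are shown through the RefSeq windows at that start, 250 bases before to 50 bases after it, on GRCm38.p6, the assembly also known as mm10. The score, here and throughout, is the −log10 q-value that the peak caller MACS2 assigned to a peak, with a cutoff of 0.1 on q, so that the lowest possible score is near 1. Capitals mark the bases that lie inside the single-library region, and each window is written 5′ to 3′ on the strand of the transcript.
Gm51739: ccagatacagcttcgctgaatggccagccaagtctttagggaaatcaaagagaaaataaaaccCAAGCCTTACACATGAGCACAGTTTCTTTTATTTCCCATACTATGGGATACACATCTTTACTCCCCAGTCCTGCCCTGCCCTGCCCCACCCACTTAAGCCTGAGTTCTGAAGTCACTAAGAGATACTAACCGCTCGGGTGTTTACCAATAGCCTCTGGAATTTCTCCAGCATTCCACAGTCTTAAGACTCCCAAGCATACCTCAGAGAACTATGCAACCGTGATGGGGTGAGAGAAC
Gm31197: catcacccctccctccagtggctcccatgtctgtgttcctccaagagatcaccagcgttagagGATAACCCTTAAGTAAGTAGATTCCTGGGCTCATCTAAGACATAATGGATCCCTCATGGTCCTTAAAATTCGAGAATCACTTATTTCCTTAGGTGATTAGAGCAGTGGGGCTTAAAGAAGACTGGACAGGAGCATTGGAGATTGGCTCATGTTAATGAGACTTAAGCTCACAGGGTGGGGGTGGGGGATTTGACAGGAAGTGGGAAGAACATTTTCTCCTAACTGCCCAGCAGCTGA
Gm31254: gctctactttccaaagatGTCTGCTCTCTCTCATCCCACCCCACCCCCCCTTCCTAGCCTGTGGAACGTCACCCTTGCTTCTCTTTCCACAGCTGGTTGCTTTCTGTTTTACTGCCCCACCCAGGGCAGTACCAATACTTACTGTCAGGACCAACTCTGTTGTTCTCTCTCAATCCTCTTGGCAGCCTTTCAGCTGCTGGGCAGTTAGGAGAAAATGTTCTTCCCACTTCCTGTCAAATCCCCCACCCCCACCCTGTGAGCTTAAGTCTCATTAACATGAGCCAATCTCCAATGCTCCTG
Celrr: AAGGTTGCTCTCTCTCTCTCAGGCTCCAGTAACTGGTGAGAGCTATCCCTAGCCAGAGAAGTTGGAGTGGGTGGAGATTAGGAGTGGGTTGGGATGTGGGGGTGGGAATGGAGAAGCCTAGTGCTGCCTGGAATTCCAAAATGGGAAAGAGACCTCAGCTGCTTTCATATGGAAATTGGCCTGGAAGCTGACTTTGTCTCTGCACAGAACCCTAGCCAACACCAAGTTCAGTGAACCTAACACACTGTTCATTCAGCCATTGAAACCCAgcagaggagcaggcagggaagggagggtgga
1700125G02Rik: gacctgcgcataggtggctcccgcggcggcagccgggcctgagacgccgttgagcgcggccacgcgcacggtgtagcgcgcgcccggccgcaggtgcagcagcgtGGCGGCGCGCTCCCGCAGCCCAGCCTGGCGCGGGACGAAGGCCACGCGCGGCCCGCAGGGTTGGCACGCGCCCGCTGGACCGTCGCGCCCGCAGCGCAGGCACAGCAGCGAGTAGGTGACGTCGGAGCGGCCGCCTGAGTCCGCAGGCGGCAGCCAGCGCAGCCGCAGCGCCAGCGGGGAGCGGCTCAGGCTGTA

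The Gm51739 window is at chr1:189778459-189778758 on the minus strand, and 237 of its 300 bases lie in a region of Nedd4L-cKO replicate 4 with a score of 3.90. Gm31197 (chr1:73140439-73140738, plus strand) and Gm31254 (chr1:73140628-73140927, minus strand) start 12 bp apart and are transcribed away from each other in the same region of WT replicate 2, chr1:73140502-73140909, which had a score of 3.11. The nearest protein-coding TSS to it, that of Tnp1, was 124603 bp away. The Celrr window (chr1:121087155-121087454, plus strand) lies in a region of Nedd4L-cKO replicate 1 with a score of 2.96. The 1700125G02Rik window (chr4:124894733-124895032, minus strand) is rich in G and C and lies in a region of Nedd4L-cKO replicate 4 with a score of 2.94. None of these scores exceeded 4, although they belong to the stronger single-library regions.

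The E-box CAGCTG, which reads the same on both strands and is a core bound by MYOD1 and MYF5 among other factors, was searched in the 68 lncRNA windows whose start lay in a single-library region. It was present in 22 of 68 (32.4%), in 81 of 278 windows at starts inside regions called in 2 to 6 libraries (29.1%), and in 310 of 1271 at starts in regions called in all 7 (24.4%). Of all 11311 lncRNA windows 17.6% held it, and of all 32851 windows 16.3%. Among the windows shown, Gm31254 had 2 matches, Gm31197 and Celrr 1 each, and Gm51739 and 1700125G02Rik 0. The AP-1 motif TGANTCA, also the same on both strands, was in 11 of 68 windows (16.2%), in 42 of 278 at starts inside regions called in 2 to 6 libraries (15.1%) and in 137 of 1271 at starts in regions called in all 7 (10.8%), compared with 9.25% of all lncRNA windows and 7.81% of all windows. Windows can overlap and hold the same E-box, as those of C330002G04Rik did, and those of Gm31197 and Gm31254. A match can also lie outside the single-library region, as in the C230024C17Rik window. A match is a string of letters and does not show that a factor was bound.

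MicroRNA (miRNA) hairpins overlapped 7 of the 13393 regions (0.0523%), 20 of those called in 2 to 6 libraries (0.0760%) and 64 of those called in all 7 (0.162%). These shares were not adjusted for the length of the regions either. The 7 regions overlapped 9 hairpins with 16 mature arms, and these had 16 different seeds, so none formed a family with another. The hairpins of Mir34a and Mir485 run past the end of their regions, so an arm shown need not lie inside. Mature sequences of the hairpins in the 3 highest-scoring regions, and of the 3 hairpins that shared a single region, are shown, 1 arm for each, with the seed, bases 2 to 8, in capitals.
mmu-miR-34a-5p: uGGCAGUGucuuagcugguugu
mmu-miR-379-5p: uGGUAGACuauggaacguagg
mmu-miR-675-5p: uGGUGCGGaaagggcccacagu
mmu-miR-134-5p: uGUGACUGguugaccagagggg
mmu-miR-485-3p: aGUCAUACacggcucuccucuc
mmu-miR-668-3p: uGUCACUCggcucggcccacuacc

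Mir34a, a target of p53 in many tissues, was overlapped by a region of Nedd4L-cKO replicate 4 at chr4:150068264-150068517 with a score of 2.64. Mir379 and the trio Mir134, Mir485 and Mir668 belong to the same large imprinted cluster on chromosome 12, downstream of Dlk1. The region over Mir379 (chr12:109708970-109709272) came from WT replicate 2 and had a score of 2.60, and the region over the trio (chr12:109734077-109734923) came from Nedd4L-cKO replicate 2 and had a score of 1.42. The Mir675 hairpin, which is cut from the imprinted lncRNA H19, lay in a region of Nedd4L-cKO replicate 4 (chr7:142576844-142577207, score 1.90) only 914 bp from a region called in all libraries. Hence, even within the cluster on chromosome 12 different libraries contributed different regions.

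Next, the number of single-library distal regions was compared between libraries. Nedd4L-cKO replicates 1, 2, 3 and 4 had 1345, 2782, 1205 and 3639 of them, and WT replicates 1, 2 and 3 had 1674, 1182 and 1566. Replicates 4 and 2 of the Nedd4L-cKO were the highest and together held 6421 regions, 47.9% of the total, whereas the other 2 Nedd4L-cKO libraries lay within or near the range of the WT. The groups overlapped. The mean was 2243 ± 1172 in Nedd4L-cKO (SD, n = 4) and 1474 ± 258.6 in WT (SD, n = 3), and the difference of 768.8 did not exceed the variation among libraries (two-sided exact permutation test with 35 splits, p = 0.371, adjusted p = 0.446 over 6 comparisons). Without both replicates 2 and 4 the difference was -423.8, and with both kept it was -235.4 among broad peaks that hold a narrow peak, so its sign was not stable. Leaving out replicate 4 alone gave 152, and lane 1 alone gave 958, with WT replicate 3 left out.

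As a share of the distal regions called in the same library, the values were 2.52, 5.04, 2.23 and 5.78% in Nedd4L-cKO replicates 1 to 4 and 2.99, 2.13 and 2.79% in WT replicates 1 to 3. The order of the libraries was the same as for the numbers, and the means of 3.89 ± 1.78% (SD, n = 4) and 2.64 ± 0.450% (SD, n = 3) did not differ beyond the spread (exact permutation test, p = 0.371, adjusted p = 0.446). Thus, the bulk of each library's distal regions were seen in at least 1 other library.

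**Figure D1:**
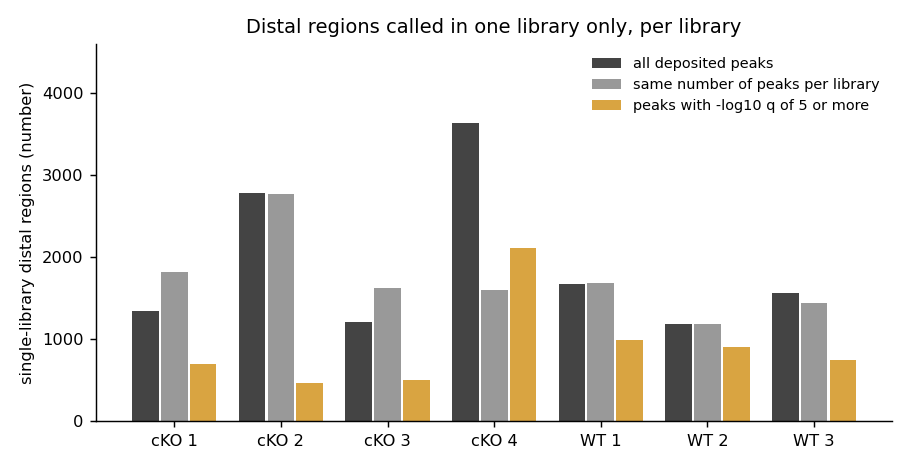
Number of single-library distal regions in each of the 4 Nedd4L-cKO (cKO) and 3 WT libraries, from all deposited peaks, from the same number of top-scoring peaks per library, and from peaks with a −log10 q of 5 or more. Nedd4L-cKO replicate 4 falls from 3639 to 1597 with equal numbers of peaks, whereas Nedd4L-cKO replicate 2 stays at 2769 there and falls to 461, the fewest, among strong peaks.

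The 2 libraries with the most single-library regions were then examined under other peak sets, and they parted. When the 67836 best-scoring peaks of every library were merged, Nedd4L-cKO replicate 4 fell from 3639 to 1597 single-library distal regions, and Nedd4L-cKO replicate 2 remained the highest with 2769. Under the same set Nedd4L-cKO replicates 1 and 3 had 1819 and 1620, and the WT libraries 1677, 1178 and 1442. When only peaks with a score of at least 5 were merged, Nedd4L-cKO replicate 2 had 461, the fewest of all, and Nedd4L-cKO replicate 4 had 2113, the most. The remaining libraries had 690 and 504 in Nedd4L-cKO replicates 1 and 3, and 993, 906 and 743 in WT. In that set the lists of replicates 2 and 4 were the shortest and the longest, with 18241 and 26241 distal regions, and as a share of the list replicate 2 had 2.53%, replicate 3 the lowest value of 2.48%, and replicate 4 8.05%. At a milder limit these 2 libraries stayed the highest: of the single-library regions from all peaks, replicate 2 had 826 and replicate 4 1165 with a score of at least 2, compared with 336 to 661 in the other 5 libraries.

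The converse count, distal regions that were called in the other 6 libraries and missed in 1, separated the same pair. It was 1186, 1435, 1079 and 192 in Nedd4L-cKO replicates 1 to 4, and 842, 547 and 552 in WT replicates 1 to 3. Replicate 2 was highest and replicate 4 lowest. Replicate 2 thus both added and lacked more regions than any WT library, and replicate 4 added many and lacked few.

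**Figure D2:**
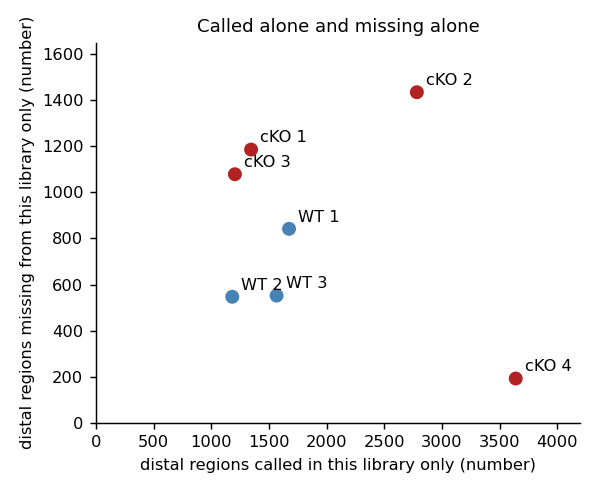
For each library, the number of distal regions called in it alone (horizontal) and the number called in the other 6 libraries and missing from it (vertical), with Nedd4L-cKO in red and WT in blue. Nedd4L-cKO replicate 2 (2782 and 1435) and replicate 4 (3639 and 192) are both far to the right but lie at opposite ends of the vertical axis.

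The number was next set against the depth of each library. Tags kept were 15.04, 15.08, 18.41 and 20.08 M in Nedd4L-cKO replicates 1 to 4, and 17.41, 17.12 and 14.43 M in WT replicates 1 to 3. Replicate 4 had the most tags and the most single-library regions. However, Nedd4L-cKO replicates 1 and 2 had nearly the same number of tags kept (ratio 1.00), while replicate 2 had 2.07 times as many single-library regions. Across the 7 libraries Pearson's r between the number of regions and the tags kept was 0.386 (exact permutation test, p = 0.397, adjusted p = 0.397 over 3 relations), and Spearman's rho was 0.214 (exact permutation test, p = 0.662, adjusted p = 0.783). Without the pair of libraries at the extremes of depth, which were WT replicate 3 and Nedd4L-cKO replicate 4, r was -0.567. Leaving out replicate 4 alone and merging anew gave -0.271, and leaving out WT replicate 3 alone gave 0.351, hence the positive sign rested on replicate 4. Within lane 1 r was 0.356.

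Tags read before the removal of repeats gave a similar picture. They numbered 36.2, 29.3, 33.7 and 42.4 M in Nedd4L-cKO and 32.1, 31.3 and 28.4 M in WT. Pearson's r with the number of regions was 0.512 (exact permutation test, p = 0.236, adjusted p = 0.354) and rho was 0.143 (exact permutation test, p = 0.783, adjusted p = 0.783). It turned to -0.535 without Nedd4L-cKO replicates 4 and 1, and was 0.498 within lane 1.

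Each library also had its own calling threshold, because MACS2 converts p-values to q-values within a library. The lowest −log10 p in the list was 2.73, 2.72, 2.72 and 2.65 in Nedd4L-cKO replicates 1 to 4 and 2.70, 2.70 and 2.73 in WT replicates 1 to 3. This value stands in for the threshold and was lowest in Nedd4L-cKO replicate 4. Over the 7 libraries r with the number of regions was -0.697 (exact permutation test, p = 0.0750, adjusted p = 0.225), rho was -0.286 (exact permutation test, p = 0.556, adjusted p = 0.783), and r within lane 1 was -0.694. Without Nedd4L-cKO replicate 4 and WT replicate 1 r was 0.232, thus this relation rested on replicate 4 as well. The lowest −log10 p and the number of regions come from the same list and are not independent.

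Single-library distal regions had low scores. The median −log10 q was 1.67 and the range was 1.00 to 10.9. A score of at least 2 was reached by 4248 regions (31.7%), of at least 3 by 926 (6.91%) and of at least 5 by 42 (0.314%). Median fold enrichment over local background was 2.86, with a range of 1.57 to 6.89, and median pileup, the mean coverage of extended tags, was 7.86. Most of these regions therefore rested on few overlapping tags.

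By library the median score was 1.61, 1.61, 1.64 and 1.64 in Nedd4L-cKO replicates 1 to 4 and 1.80, 1.76 and 1.64 in WT replicates 1 to 3. WT replicates 1 and 2 stood above the rest, and WT replicate 3 lay just above the highest Nedd4L-cKO library. The groups therefore did not overlap, and the mean difference was -0.110 (1.63 ± 0.0176, SD, n = 4, against 1.74 ± 0.0830, SD, n = 3). The exact permutation test gave p = 0.0286, the smallest that 35 splits allow, and after adjustment over the 6 comparisons it did not pass (adjusted p = 0.171). It turned to 0.0316 among broad peaks that hold a narrow peak and to 0.0685 among peaks with a score of at least 5.

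Beside these scores, the pileup in whole tags at which a library would begin to call was computed. Only the p cutoffs it had to reach were read from the listed peaks. The computation used a Poisson background set by the tags kept over the genome and left out the local background. The step for a broad peak was 6, 6, 7 and 7 tags in Nedd4L-cKO replicates 1 to 4 and 7, 7 and 6 in WT replicates 1 to 3, and the step for a narrow peak was 7, 7, 8 and 8, and 7, 7 and 7. WT replicates 1 and 2 were the only libraries in which both computed steps were the same. The computed −log10 p at the broad step was 3.16 and 3.20 there, compared with 2.77 to 3.00 elsewhere. The cutoff for the broad step was the lowest −log10 p of a listed peak in the same library. The computed value therefore could not lie below it. The same 2 libraries stood apart in the share of single-library regions that hold a narrow peak: it was 54.4 and 52.7% there, 24.3% in WT replicate 3, and 24.0, 30.6, 21.2 and 30.8% in Nedd4L-cKO replicates 1 to 4. The part of this step in the difference in scores was not tested.

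**Figure D3:**
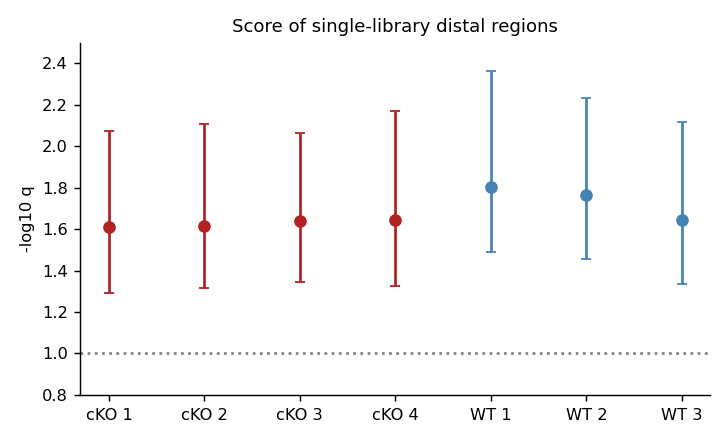
Median −log10 q of the single-library distal regions in each library (points) with the 25th and 75th percentile (bars), Nedd4L-cKO (cKO) in red and WT in blue. The dotted line is the cutoff at 1. The axis starts at 0.8. Medians run from 1.61 to 1.64 in Nedd4L-cKO and from 1.64 to 1.80 in WT.

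The score and length of distal regions rose with each further library that shared them. From 1 to 7 libraries the median score of the peaks was 1.67, 1.84, 1.99, 2.13, 2.29, 2.55 and 5.26. The median length of the merged region was 334, 500, 616, 682, 778, 877 and 1211 bp, which in part follows from merging more peaks. The length of a single peak also rose, from 334 bp in regions of 1 library and 359 bp in those of 2 libraries to 493 bp in those of 6 and 869 bp in those of all 7. Regions called in 2 libraries, just beyond the limit of the selection, thus scored a little above the single-library regions, while the largest step was from 6 to 7 libraries. At the other limit, the kept regions nearest to a TSS lay 1017, 1018 and 1020 bp from the starts of Adam30, Npnt and Cyp2w1, with scores of 1.40, 1.85 and 2.71. Those just inside the window and left out lay 991, 989 and 989 bp from Slc24a1, Rxra and Dll4 and had scores of 1.24, 1.37 and 1.71.

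**Figure D4:**
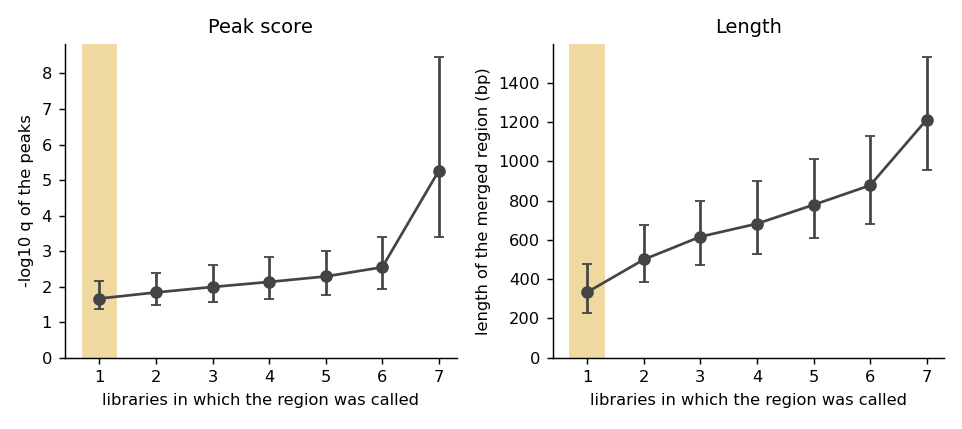
Median −log10 q of the peaks (left) and median length of the merged distal regions in bp (right) by the number of libraries in which the region was called, with bars from the 25th to the 75th percentile. The shaded column marks the 13393 single-library regions, with medians of 1.67 and 334 bp, against 5.26 and 1211 bp for regions called in all 7 libraries.

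The lengths of single-library regions ran from 200 to 2443 bp, and 77.8% were under 500 bp. Medians were 317, 369.5, 325 and 347 bp in Nedd4L-cKO replicates 1 to 4 and 317, 316 and 307 bp in WT replicates 1 to 3. The longest median was that of Nedd4L-cKO replicate 2, and Nedd4L-cKO replicate 1 equalled WT replicate 1. The difference of 26.3 bp (339.6 ± 23.6 against 313.3 ± 5.51 bp, SD, n = 4 and n = 3) was not larger than the spread (exact permutation test, p = 0.171, adjusted p = 0.343).

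The strongest single-library regions were examined, the 2 with the highest score in each library. The highest of all was in Nedd4L-cKO replicate 1, chr6:132463629-132463895, with a score of 10.9 and a fold enrichment of 6.89, and its nearest protein-coding TSS was that of Gm8882, 99495 bp away. The same library held chr13:27206004-27206217, with a score of 7.78, 7101 bp from Prl3c1, a member of the prolactin hormone family. The nearest region called in all libraries was 640996 and 500198 bp away from them. By contrast, the strongest region of Nedd4L-cKO replicate 2, chr8:126920900-126921153 with a score of 7.89, lay 1136 bp from a constant region and 24768 bp from Tomm20, a receptor of the mitochondrial import machinery, and its pileup of 36.8 came with a fold enrichment of 3.16 only. The second of that library, chr19:52676092-52676528, had a score of 5.82 and lay 246244 bp from a constant region.

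Nedd4L-cKO replicate 3 had its highest scores at chr17:46701364-46701622 inside Ppp2r5d, which encodes a regulatory subunit of the phosphatase PP2A (5.33), and at chr16:3843032-3843253, 3937 bp from Zfp174 (5.13). Those of Nedd4L-cKO replicate 4 were at chr14:77677967-77678288 inside Enox1 (7.32) and chr9:104646398-104646963 inside Cpne4 (6.25). WT replicate 1 had chr19:21274244-21274443 inside Zfand5, where the pileup was 44.7 and the score 5.47, and chr10:76246622-76246880, 6956 bp from S100b, which encodes a calcium-binding protein (5.41). WT replicate 2 had a region inside Commd10 (5.62) and chr4:30905004-30905254, 1058238 bp from Map3k7 (5.43). The highest of WT replicate 3 were chr1:154126595-154126898, 74289 bp from Zfp648 (6.999), and chr14:65883285-65883510, 45983 bp from Ccdc25 (4.73). Of these 14 regions 5 lay more than 100 kb from a constant region and 5 lay inside a protein-coding gene.

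Then, the position relative to constant regions, the 52187 regions called in all 7 libraries, was compared. The median distance from a single-library distal region to the nearest constant region was 8777 bp, with quartiles of 4314 and 20840 bp. Of these regions 4.76% lay within 1 kb and 54.4% within 10 kb, while 4.84% lay more than 100 kb away. Among distal regions called in 2 to 6 libraries the shares were similar, with 4.82%, 57.2% and 3.54%. Medians by library were 8481, 10645, 8520 and 9690 bp in Nedd4L-cKO replicates 1 to 4 and 7011, 6789 and 8660 bp in WT replicates 1 to 3. Nedd4L-cKO replicates 2 and 4 were the farthest and WT replicates 1 and 2 the nearest, whereas WT replicate 3 lay among the Nedd4L-cKO libraries. The difference of 1847 bp (9334 ± 1039 against 7487 ± 1022 bp, SD, n = 4 and n = 3) did not pass (exact permutation test, p = 0.171, adjusted p = 0.343). It was -685.3 bp among broad peaks that hold a narrow peak and -803.4 bp among peaks with a score of at least 5.

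Within each library the same distance was compared between its single-library regions and its distal regions called in 2 to 6 libraries. The former were farther away by 768, 2525, 552 and 1569 bp in Nedd4L-cKO replicates 1 to 4 and by 582 bp in WT replicate 3, and nearer in WT replicates 1 and 2, where the difference was -460.5 and -569 bp. The mean difference was 709.5 ± 1086 bp (SD, n = 7) and the sign was positive in 5 of 7 libraries (exact sign-flip permutation test, p = 0.125, adjusted p = 0.188 over 3 comparisons). In the same exact permutation test it passed when all lists were cut to equal numbers of peaks (898.7 bp, adjusted p = 0.0234) and among peaks with a score of at least 5 (1910 bp, adjusted p = 0.0469). Regions called in 2 to 6 libraries belong to several libraries at once, so the 7 differences are not fully independent.

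**Figure D5:**
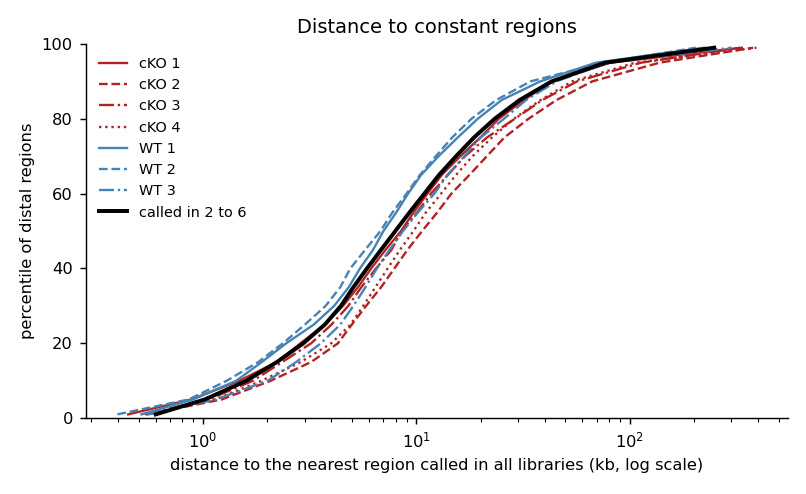
Percentile of single-library distal regions against the distance to the nearest region called in all libraries (kb, log scale), with a line per library (Nedd4L-cKO red, WT blue) and distal regions called in 2 to 6 libraries in black. The lines of WT replicates 1 and 2 lie left of the others over most of the range, with medians of 7011 and 6789 bp, and that of Nedd4L-cKO replicate 2 lies farthest right, with a median of 10645 bp.

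Peaks of any other library, those in constant regions included, were also considered. The median distance to the nearest was 3751, 5463, 4159 and 5142 bp in Nedd4L-cKO replicates 1 to 4 and 3352, 3005 and 4479 bp in WT replicates 1 to 3. Within 1 kb of such a peak lay 16.6, 12.2, 17.4 and 12.4% of the regions of the Nedd4L-cKO libraries and 17.7, 20.4 and 14.8% of those of the WT. Again replicates 2 and 4 were the most isolated. When peaks up to 500 bp apart were merged, the difference in number between genotypes was 747.4, close to the main value.

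Regarding genes, 7415 single-library distal regions (55.4%) lay inside a protein-coding gene span. The share by library was 55.4, 54.9, 55.5 and 54.7% in Nedd4L-cKO replicates 1 to 4 and 58.5, 55.4 and 54.4% in WT replicates 1 to 3. WT replicate 1 was the highest and WT replicate 3 the lowest, hence the genotypes overlapped (difference -0.996 percentage points, exact permutation test, p = 0.514, adjusted p = 0.514). In each library the share was higher than among its distal regions called in 2 to 6 libraries, by 1.85, 0.739, 1.17 and 0.357 points in Nedd4L-cKO and 3.54, 1.59 and 0.982 points in WT. The mean difference of 1.46 ± 1.04 points (SD, n = 7; 55.5 against 54.1%) was positive in 7 of 7 libraries (exact sign-flip permutation test, p = 0.0156, the smallest that sign flips of 7 values allow, adjusted p = 0.0469). The difference was small and it turned to -0.235 points among single-library regions with a score of at least 2 and to -0.650 points among peaks with a score of at least 5, while with any 1 library left out the adjusted p was at least 0.0938. Here, 6 libraries cannot reach a p below 0.0313.

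The median distance to the nearest protein-coding TSS was 40729 bp, and 16.1% of the regions lay within 10 kb and 25.9% beyond 100 kb. Medians by library ranged from 32055 bp in WT replicate 1 to 48410 bp in Nedd4L-cKO replicate 2. The mean difference from regions called in 2 to 6 libraries was 597.6 ± 4891 bp (SD, n = 7), positive in 4 of 7 libraries (exact sign-flip permutation test, p = 0.766, adjusted p = 0.766). The single-library regions were spread over all chromosomes, with 15.2% of distal regions on chromosome 15 and 18.1% on chromosome 18 as the extremes.

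In all, 3927 of 20665 protein-coding genes held at least 1 single-library distal region, 274 held 5 or more and 27 held 10 or more. A distal region of any kind lay in 9365 genes. The most were in large genes. These were named by their counts, and their shares stand beside the 16.9% of all distal regions as a description. Zbtb20, which encodes a transcriptional repressor with a BTB domain and zinc fingers, held 21 in a span of 758.7 kb (chr16:42875689-43634392), that is 24.4% of its 86 distal regions, and they came from all 7 libraries, 7 of them from Nedd4L-cKO replicate 2. Cdh13, the gene of T-cadherin, held 20 of 91 (22.0%), 9 of them from Nedd4L-cKO replicate 4. Rora, which encodes a nuclear receptor that drives circadian transcription, held 20 of 99 (20.2%), Tenm4, a teneurin of the cell surface, 15 of 69 (21.7%), and Auts2, a nuclear regulator best known from neurons, 14 of 95 (14.7%). Together with Wwox (13 of 65), the first 4 were the only genes with a region from all 7 libraries, and in each of these 5 genes at least 25 further distal regions were constant.

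Relative to span, other genes led. C130026I21Rik on chromosome 1 held 6 in 41.6 kb and Gm38510, whose span overlaps it, held 11 in 153.8 kb (chr1:85155201-85309015). In both, every distal region was called in 1 library only: 6 of 6 and 11 of 11. Of the 11 regions, 6 came from Nedd4L-cKO replicate 3, 2 from replicate 2, 1 from WT replicate 1 and 2 from WT replicate 2, with scores of 1.03 to 2.37. The surrounding window, chr1:85000001-86000000, which also holds Sp100, Sp110 and Sp140 of the nuclear body, had 26 single-library regions among 53 distal ones (49.1%), and 10 of them came from Nedd4L-cKO replicate 3, the library with the second fewest overall. The window was found by its count, so its share beside the 16.9% of all distal regions is a description. The other leading genes were Mbd2, a reader of methylated CpG, with 5 of 10 distal regions, Raly, an RNA-binding protein, with 6 of 11, 3 of them from Nedd4L-cKO replicate 1, and Ablim3, an actin-binding LIM protein, with 8 of 13. Per 100 kb, Mbd2 (8.21) and Raly (7.49) ranked above Gm38510 (7.15), and Ablim3 (7.11) just below it.

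Windows of 1 Mb with the most regions of a single library were also found elsewhere. The window chr1:182000001-183000000, with Capn2 and Enah, held 12 of Nedd4L-cKO replicate 4, and 19 of its 75 distal regions were single-library (25.3%). The window chr16:43000001-44000000, with part of Zbtb20, held 11 of Nedd4L-cKO replicate 2, and 26 of its 94 distal regions were single-library (27.7%). Both came from the libraries with the most regions, whereas the window near Sp100 was led by a library with few. These windows too were found by their counts, so their shares beside the 16.9% of all distal regions are a description.

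Finally, the genes that mark or regulate MuSCs were examined. Of a list of 17, 16 had a promoter peak in all 7 libraries, the exception being Notch3 with 1. Single-library distal regions were nearest to the TSS of 8 of the 17 genes and numbered 20 of 153 distal regions (13.1%), which is below the 16.9% of all distal regions; no test was made. Of the 20, 13 came from Nedd4L-cKO and 7 from WT libraries, while 67.0% of all single-library distal regions came from the 4 Nedd4L-cKO libraries. Scores were low, from 1.01 to 2.89 with a median of 1.49, and 4 reached 2.

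Among surface molecules, Cdh15, the gene of M-cadherin that links MuSCs to the fiber, was the nearest gene of 7 regions from 5 libraries, between 5006 and 94588 bp from its TSS. Sdc4, a heparan sulfate proteoglycan, had 1 region in WT replicate 3 at chr2:164439018-164439217 with the highest score of the list, 2.89. Cd34, a sialomucin of quiescent cells, had 2, at 3348 and 46632 bp. Of the receptors, Calcr, the calcitonin receptor that keeps MuSCs quiescent, had 1 in Nedd4L-cKO replicate 4 (chr6:3758084-3758405, score 2.54), Met, the receptor of hepatocyte growth factor, had 2 with scores of 1.10 and 1.02, and Fgfr4, a receptor of fibroblast growth factors, had 1 with a score of 1.502. Spry1, an inhibitor of receptor tyrosine kinase signaling, had 4 regions from 3 libraries, the highest in Nedd4L-cKO replicate 4 with a score of 2.41. Pax7 itself had 2 regions, both from Nedd4L-cKO replicate 4, at chr4:139800000-139800727 (score 1.57) and chr4:139836048-139836445 (score 1.36), the latter 2518 bp from a TSS. The nearest TSS names a neighbour and not a target.

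Markers of other cell types had few such regions. Fibro-adipogenic markers had 10 of 44 distal regions (22.7%) and myofiber markers 2 of 9 (22.2%), both above the share of 16.9% among all distal regions. Endothelial markers had 6 of 60 (10.0%), immune markers 4 of 30 (13.3%), pericyte and smooth muscle markers 1 of 12, and tendon markers 0 of 4. The tendon value rests on 1 of 2 markers, as the other had no TSS on the chromosomes used. In none of these lists did a single library hold more than 3, and no list was tested against all distal regions.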

How the data were processed

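Each library was made from 5000 MuSCs by ATAC-seq. Per the study's methods and processing notes, the authors trimmed reads with Trimmomatic 0.39, aligned pairs to mm10 with BWA 0.7.17, filtered with SAMtools and removed duplicates with Picard 2.26.3. Per the file headers, the authors then called broad peaks for each library alone with MACS2 2.2.7.1, with no control and no pooling, a tag shift of -100 bp, an extension to 200 bp, and q cutoffs of 0.1 (broad) and 0.05 (narrow). The deposited pileup is a signal, namely the coverage by extended tags without depth scaling. Fold enrichment, as deposited, is the ratio of that signal to its background. Every p-value and q-value was deposited as −log10, and the score column deposited with them holds 10 times the −log10 q. The gapped lists were used to find narrow peaks.

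From these lists, peaks of the 19 autosomes were merged and annotated with RefSeq gene spans and starts on GRCm38.p6, with strand also from GENCODE by symbol. A TSS was found for 20232 of 20665 protein-coding genes (97.9%). Coordinates are 1-based on mm10. Genotypes were compared by exact permutation of the 7 libraries, relations by exact permutation of pairings, and kinds of region by exact sign flips within libraries, all two-sided, with Benjamini-Hochberg adjustment within each family. These p-values measure the spread between libraries. The scripts were tested on simulated data and used scipy 1.17.1, numpy 2.4.6, pandas 2.3.3 and Python 3.11.15. The regions, gene lists and tests were chosen with earlier results of these data known. Named were the 2 highest-scoring regions per library, the 5 genes with the most regions and the 5 with the most per 100 kb among genes with at least 5, the MuSC list and the marker lists, of which 1 marker and the count of its list are not reported here. Wwox, the windows of 1 Mb, the lncRNA starts and the hairpins were named after their values were seen. Alternatives were stricter scores, peaks with a narrow peak, a merge gap of 500 bp, a TSS window of 2.5 kb, equal numbers of peaks, lane 1 alone, a replicate block and leaving out each library. The outermost TSS alone and the merge without Nedd4L-cKO replicates 2 and 4 were added after seeing the data. Each library left out meant a new merge of the others. Depth limits which weak regions pass, and peak lists without tag counts give no interval per region.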

Additional observations from a re-analysis of the deposited data

How the results depend on the processing

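Of 201 alternative values, 167 kept their direction and side of the threshold, 21 reversed, and in the same direction 10 lost and 3 gained significance. Lane 1 alone and leaving out WT replicate 3 are the same set of libraries, and its values were counted under both names. The gene share above that of regions of 2 to 6 libraries, the only call, was also lost in 2 of the reversed values. The causes were not tested. Among regions with a score of at least 2, the difference in gene share between genotypes was 0.255 points and that from regions of 2 to 6 libraries -0.235. With peaks of at least 5 merged, the score difference was 0.0685, the distance to constant regions -803.4 bp between genotypes and 1910 bp from regions of 2 to 6 libraries, and the gene share -0.650 points from the latter. In that set r with the lowest −log10 p was -0.955 (exact permutation test, adjusted p = 0.00357). Both values behind this r come from the same list and are not independent, so its p-value does not show a separate relation. With broad peaks that hold a narrow peak, the genotypes differed by -235.4 in number, -0.389 points in share, 0.0316 in score, -685.3 bp in distance and 0.788 points in gene share, which was 0.558 points above regions of 2 to 6 libraries (exact permutation test, adjusted p = 0.516). With equal numbers of peaks, r was -0.335 with tags kept and -0.177 with tags read. The distance to constant regions then differed by 898.7 bp from that of regions of 2 to 6 libraries. In lane 1 alone the gene share was 1.46 points above that of regions shared by some libraries but not all (exact permutation test, adjusted p = 0.0938). Without Nedd4L-cKO replicates 2 and 4, the genotypes differed by -423.8 in number and -0.588 points in share, and r was -0.317 with tags kept and -0.560 with tags read. In that set single-library regions differed from regions shared by some libraries but not all. The difference was -274.2 bp in TSS distance and 1.54 points in gene share (exact permutation test, adjusted p = 0.188 for the gene share). Leaving out 1 library gave 152 to 1209 for the number, 0.386 to 1.94 points for the share, -0.160 to -0.0710 for the score, 17.3 to 30.7 bp for length, 1257 to 2251 bp for the distance and -1.69 to 0.464 points for the gene share, positive without WT replicate 1. It gave r of -0.271 to 0.654 with tags kept, -0.551 to 0.768 with tags read (both lowest without Nedd4L-cKO replicate 4) and -0.867 to -0.0368 with the lowest −log10 p. Against regions of 2 to 6 libraries it gave 1.15 to 1.57 points for gene share, 485.6 to 849.8 bp for the distance to constant regions and -294.3 to 1038 bp for that to a TSS, negative without Nedd4L-cKO replicate 2. Same-numbered libraries had correlations of deviations of -0.123, 0.0302 and -0.122. With so few libraries these values cannot decide whether the numbers pair the samples, and the labels do not state a pairing. With the replicate block over 3 pairs the difference in number was 303.3 and in score -0.116 (p = 0.25, the lowest that an exact permutation test of 3 pairs can give), and no call changed.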
